A study of Capra hircus with 12 samples.

Results

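Genes of the proteasome were followed in RNA-seq libraries of mammary gland from lactating female dairy goats (Capra hircus) whose glands had been infused with glucose at a low, middle or high dose before biopsy. A gene was taken as a member when the annotation column of the deposited tables places it in the KEGG pathway named exactly Proteasome, which holds for 43 of the 15810 genes that all libraries list. These are 8 alpha and 7 constitutive beta subunits of the 20S core, 3 inducible beta subunits of the immunoproteasome, the thymus-type beta subunit PSMB11, 5 ATPases and 13 other subunits of the 19S cap, 4 activator or inhibitor genes, the assembly factor POMP, and IFNG, the cytokine that KEGG draws as an inducer. PSMC2, the remaining ATPase of the cap, and PSME2, the partner of PSME1, do not carry the term and are given beside the members for comparison only.

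The proteasome is the protease that degrades proteins tagged with ubiquitin in the cytosol and nucleus. Its 20S core is a barrel of alpha and beta rings in which 3 of the beta subunits, PSMB5, PSMB6 and PSMB7, cut the chain, while the 19S cap recognises ubiquitin, unfolds the substrate with its ATPases and feeds it into the barrel. Interferon gamma induces the replacement subunits PSMB8, PSMB9 and PSMB10, which take the places of PSMB5, PSMB6 and PSMB7 and change which peptides reach MHC class I. In most tissues leukocytes hold much of the immunoproteasome, and epithelial cells can also be induced to make it.

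Each of the 3 doses has 4 libraries, and no library of a gland without infused glucose was analysed here. The doses are given in words only, and the sources used here do not give breed, age, infusion time, or which goat gave which library, so the p-values describe how these 4 samples per dose scatter, and that scatter may be technical only. Library totals ran from 9555072 to 12716883 reads assigned to genes. Levels are in CPM (counts scaled to the library total), with the totals adjusted between libraries by the trimmed mean of M-values (TMM). The tables have 2 layouts, the larger group of 8 libraries listing 15991 genes and the other 4 libraries (low replicate 3, middle replicate 1, high replicates 1 and 4) listing 16030. Milk protein genes took 52.0% to 58.9% of the reads in middle replicates 1, 2 and 4 but 3.44% in middle replicate 3, 2.18% to 13.7% at the low dose and 7.48% to 42.1% at the high dose. The epithelial genes EPCAM, CDH1, ELF5 and KRT18 were counted in every library. Of the 43 members, 41 passed the filter on low counts and were tested among 13624 genes, each tested member other than PSMA8 having between 39 and 4188 reads in every library.

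The immunoproteasome subunits were low in 3 of the 4 middle-dose libraries and high in the remaining one. PSMB8 (gene 102180902), the inducible chymotrypsin-like subunit, stood at 55.4, 95.8, 62.6 and 66.4 CPM in low replicates 1 to 4, at 35.4, 29.5, 108 and 26.7 CPM in middle replicates 1 to 4, and at 51.5, 51.8, 69.2 and 69.8 CPM in high replicates 1 to 4. Middle replicate 3 was thus the highest of the 12 libraries and the other 3 middle libraries were the lowest. PSMB9 (gene 102181449), the inducible counterpart of PSMB6, stood at 16.9, 25.2, 20.1 and 25.1 CPM at the low dose, at 7.78, 9.37, 22.7 and 7.95 CPM at the middle dose, and at 12.2, 11.8, 21.1 and 16.9 CPM at the high dose. PSMB10 (gene 102189234), the inducible counterpart of PSMB7, stood at 32.1, 62.5, 34.1 and 38.4 CPM, at 12.2, 12.1, 51.6 and 8.76 CPM, and at 24.2, 22.4, 67.1 and 37.8 CPM in the same order. Both share with PSMB8 that middle replicate 3 was the highest middle library, above the other 3 libraries by more than any of those 3 differed from each other.

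**Figure D1:**
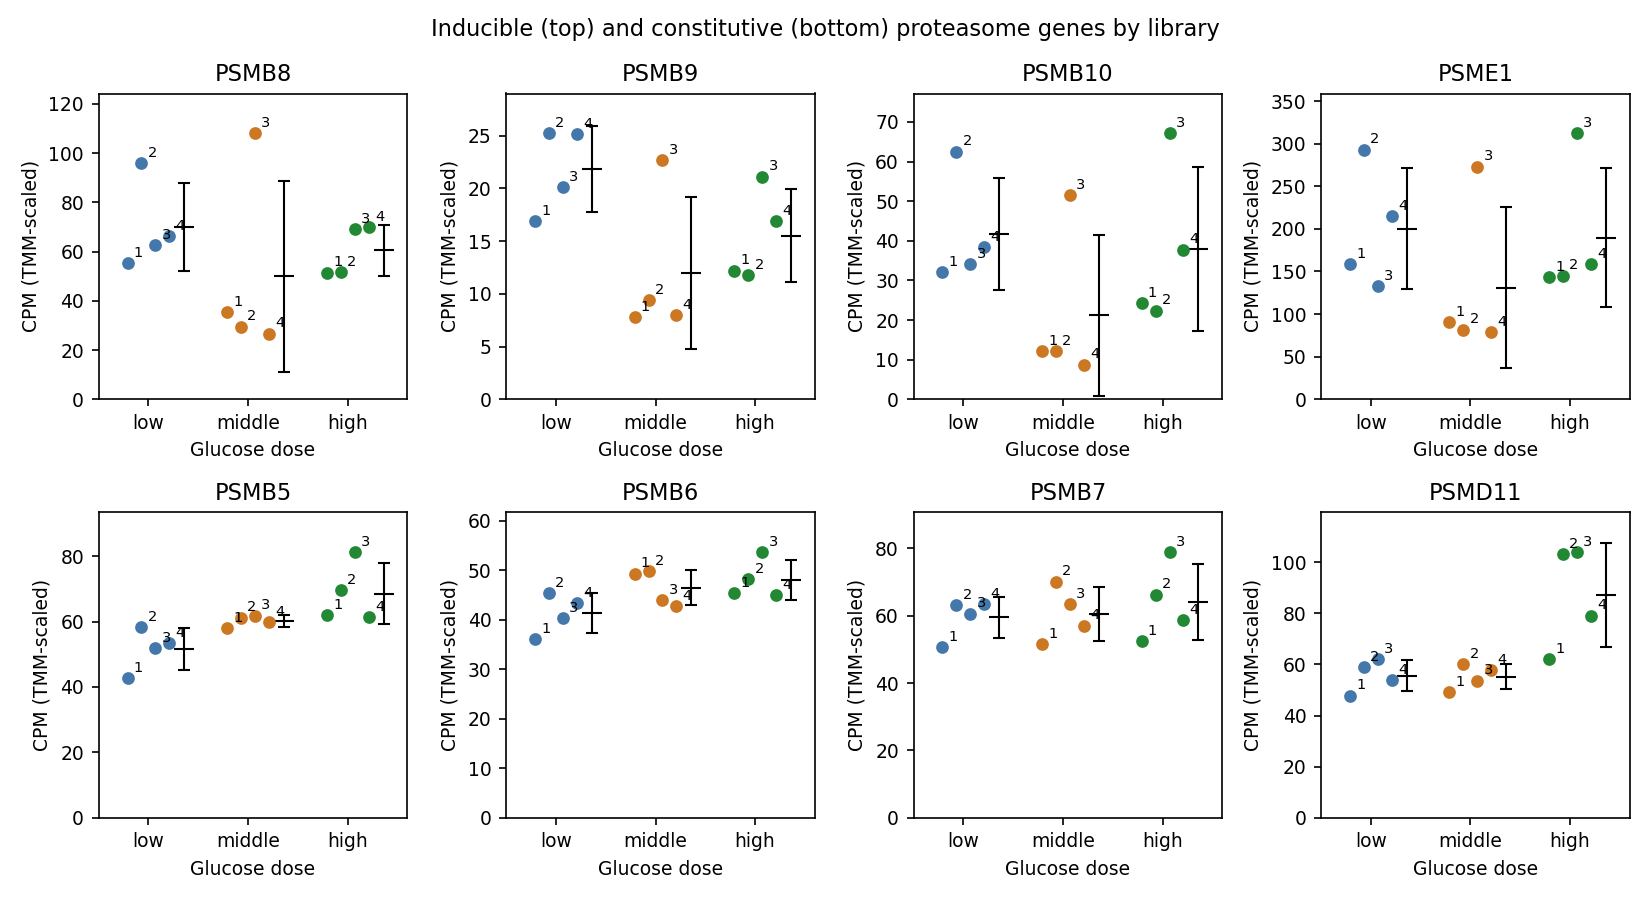
Level of the immunoproteasome subunits and selected other members in each of the 12 libraries (CPM, TMM-scaled, linear axis from 0), by glucose dose; numbers beside the points are replicate numbers and bars are the mean ± SD over the 4 libraries of a dose. For PSMB8, middle replicates 1, 2 and 4 lie between 26.7 and 35.4 CPM, below all other libraries, and middle replicate 3 lies at 108 CPM.

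All 3 immunoproteasome genes had middle replicates 1, 2 and 4 as their lowest 3 libraries, a pattern held by 7.69% of all genes tested and by 3 of the 33 constitutive 20S and 19S genes. The pattern was read from these same levels, so the shares describe it and test nothing. Milk protein genes took 52.0% to 58.9% of the reads in these libraries. In middle replicates 1, 2 and 4 the levels reached at most 35.4 CPM for PSMB8, 9.37 CPM for PSMB9 and 12.2 CPM for PSMB10. The other 9 libraries had at least 51.5, 11.8 and 22.4 CPM of these genes. In whole biopsies, fewer cells of a type and less RNA per cell cannot be told apart.

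Over all 12 libraries no member passed the threshold in the middle against low comparison, with 0.0% of all genes called by edgeR's quasi-likelihood test at a Benjamini-Hochberg adjusted p under 0.05. All 3 immunoproteasome genes had lower estimates, as did 52.6% of all genes. The estimates were -0.48 ± 0.39 (log2, ± SE) for PSMB8, -0.84 ± 0.34 for PSMB9 and -0.95 ± 0.54 for PSMB10, with adjusted p of 0.466, 0.168 and 0.298. PSMB9 had an unadjusted p of 0.0301 and was the only member with a lower estimate to reach 0.05 unadjusted, where 11.3% of all genes did. Without middle replicate 3 the same test called 17.3% of all genes and 4 of the 41 members, all lower at the middle dose. PSMB8 then differed by -1.19 ± 0.22 (adjusted p = 0.00924), PSMB9 by -1.37 ± 0.25 (adjusted p = 0.00931), PSMB10 by -1.90 ± 0.40 (adjusted p = 0.0135) and the activator PSME1 by -1.25 ± 0.33 (adjusted p = 0.0279). The calls therefore depend on 1 library, and the members were called in a smaller share than all genes. With all 12 libraries, DESeq2 called 10.3% of all genes and no member, and limma voom with quality weights called 34.5% of all genes and 10 of the 41 members, PSMB8, PSMB9, PSMB10 and PSME1 among them.

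At the high dose the estimates of these genes lay between those of the other doses. All 3 were lower than at the low dose by estimate, as were 53.0% of all genes. The high minus low estimates were -0.21 ± 0.39 for PSMB8, -0.49 ± 0.34 for PSMB9 and -0.14 ± 0.53 for PSMB10, and the high minus middle estimates were 0.27 ± 0.39, 0.35 ± 0.34 and 0.81 ± 0.54. None of the 6 had an adjusted p under 0.05, and neither comparison called any gene (0.0% in each). In high against low DESeq2 called 0.418% of all genes and no member. Without middle replicate 3, the high against middle comparison called 3.66% of all genes and 3 of the 41 members, which were PSMB8 at 0.98 ± 0.21 (adjusted p = 0.0383), PSMB10 at 1.76 ± 0.40 (adjusted p = 0.0407) and the constitutive subunit PSMB3 at 0.69 ± 0.15 (adjusted p = 0.0407). PSMB10 had a higher estimate at the high than at the low dose, 0.05, among the libraries of the larger table layout alone, so its direction in that comparison is not settled by these libraries.

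The ratio of each inducible subunit to the constitutive subunit it replaces was taken within each library, which removes the scaling between libraries. These log2 ratios carry the lengths of both genes, so only their differences between libraries are read. For PSMB8 to PSMB5 the ratio was 0.37, 0.71, 0.27 and 0.31 at the low dose, -0.71, -1.05, 0.80 and -1.16 at the middle dose, and -0.27, -0.43, -0.23 and 0.19 at the high dose. Every high-dose library lay below every low-dose library, and middle replicate 3 lay above all of them. For PSMB9 to PSMB6 the ratio was -1.09, -0.85, -1.001 and -0.79 at the low dose, -2.65, -2.40, -0.95 and -2.41 at the middle dose, and -1.90, -2.02, -1.35 and -1.41 at the high dose. Here too the low and high doses did not overlap. For PSMB10 to PSMB7 the ratio was -0.66, -0.01, -0.83 and -0.72 at the low dose, -2.07, -2.52, -0.30 and -2.69 at the middle dose, and -1.12, -1.56, -0.23 and -0.63 at the high dose. The low and high doses overlapped for this pair.

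The high minus low difference was -0.60 for PSMB8 to PSMB5, a ratio 1.52-fold lower, and -0.73 for PSMB9 to PSMB6, a ratio 1.66-fold lower. Each reached p = 0.0286 in an exact two-sided permutation test, the smallest that 4 against 4 libraries allow, and p = 0.129 after Benjamini-Hochberg adjustment over the 9 tests of 3 ratios in 3 comparisons. PSMB10 to PSMB7 differed by -0.33 between high and low (exact permutation p = 0.4, adjusted p = 0.45). The middle minus low differences were larger in size, -0.95, -1.17 and -1.34, but with exact permutation p of 0.143, 0.0857 and 0.114, and middle replicate 3 lay within or above the low-dose libraries for all 3 ratios. The 3 adjusted p were each 0.214. Without that library the 3 middle minus low differences were -1.39, -1.56 and -1.87, each with an exact permutation p of 0.0286 and an adjusted p of 0.0368. Middle replicate 3 was the only middle library not below all low-dose libraries in these ratios. Leaving it out thus fixed each p at its smallest possible value, so these p add no test of dose. Leaving middle replicate 3 out also moved the adjusted p of the high minus low differences of the PSMB8 and PSMB9 ratios to 0.0368, as more of the 9 tests then reached their smallest p. Among the libraries of the larger table layout alone, 2 high and 3 low, the high minus low differences were -0.79 and -0.77, each with an exact permutation p of 0.1, the smallest that layout allows.

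**Figure D2:**
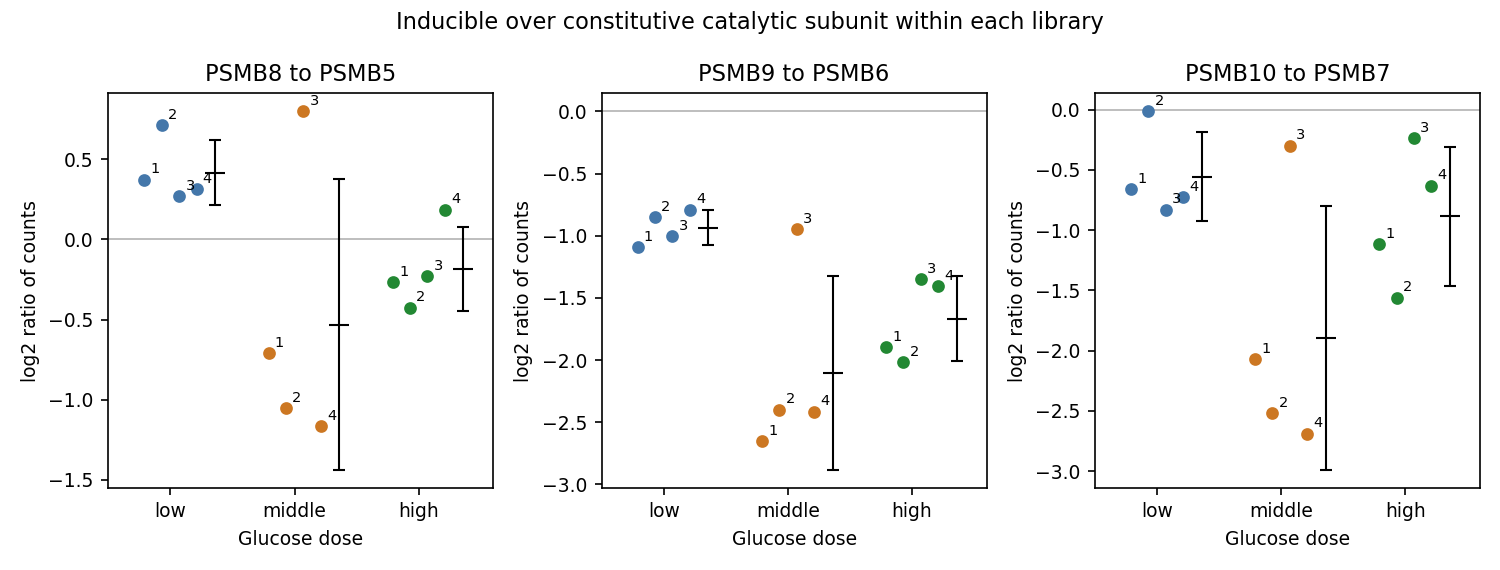
Log2 ratio of counts of each inducible catalytic subunit to its constitutive counterpart within each of the 12 libraries, by glucose dose; numbers are replicate numbers and bars are the mean ± SD over the 4 libraries of a dose. For PSMB8 to PSMB5 and PSMB9 to PSMB6 all 4 high-dose libraries lie below all 4 low-dose libraries, and in each panel middle replicate 3 lies apart from middle replicates 1, 2 and 4.

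In high against low, the estimates of the inducible and the constitutive genes had opposite signs for each pair. For PSMB10 and PSMB7 both estimates were smaller than their SE, and each changed sign with some single libraries left out. The PSMB8 estimate, -0.21 ± 0.39, was also smaller than its SE and ran from -0.305 to -0.019 with single libraries left out. PSMB5 (gene 102175024), the constitutive chymotrypsin-like subunit, stood at 42.7, 58.4, 51.9 and 53.4 CPM at the low dose, at 57.9, 61.2, 61.8 and 59.9 CPM at the middle dose and at 62.0, 69.5, 81.3 and 61.3 CPM at the high dose. All 4 high-dose libraries lay above all 4 low-dose libraries, and the high minus low estimate was 0.41 ± 0.13 (adjusted p = 0.386). PSMB6, the constitutive caspase-like subunit, stood at 36.1, 45.4, 40.3 and 43.4 CPM at the low dose, at 49.3, 49.8, 44.0 and 42.8 CPM at the middle dose and at 45.4, 48.2, 53.7 and 44.9 CPM at the high dose. PSMB7, the constitutive trypsin-like subunit, ranged from 50.7 to 63.4 CPM at the low dose, from 51.5 to 70.1 CPM at the middle dose and from 52.4 to 78.9 CPM at the high dose. PSMB6 and PSMB7 overlapped between all doses, with high minus low estimates of 0.22 ± 0.12 and 0.11 ± 0.15.

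PSME1 (gene 102179390), a subunit of the 11S activator that interferon gamma induces, followed the pattern of the inducible beta subunits. Its level was 159, 293, 133 and 215 CPM at the low dose, 90.8, 81.7, 273 and 79.1 CPM at the middle dose, and 143, 145, 312 and 159 CPM at the high dose. Middle replicates 1, 2 and 4 were again the lowest 3 of the 12 libraries, and low replicate 2, middle replicate 3 and high replicate 3 were the highest. PSME2, its partner in the same ring and no member here, stood at 50.3, 105, 57.8 and 76.8 CPM, at 38.6, 48.7, 84.6 and 39.3 CPM, and at 58.0, 55.8, 115 and 58.4 CPM in the same order. The middle minus low estimates were -0.60 ± 0.43 for PSME1 (adjusted p = 0.41) and -0.45 ± 0.33 for PSME2 (adjusted p = 0.416). The high minus low estimates were -0.08 ± 0.43 and -0.01 ± 0.33, and both changed sign under other processing or with other libraries left out.

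The positions of these genes follow the tables' own coordinates, whose build is not named in the sources used here. PSMB8 (chr23:6857461-6859916) and PSMB9 (chr23:6871243-6877910) lie 11326 bases apart with the peptide transporter gene TAP1 (chr23:6861977-6870427) between them, and TAP2 (chr23:6845209-6853178) lies 4282 bases before PSMB8. PSME2 (chr10:20531869-20535774) and PSME1 (chr10:20540743-20542723) lie 4968 bases apart. PSMB11 (chr10:21344191-21345347) and PSMB5 (chr10:21350802-21356367) lie 5454 bases apart, and PSMB10 (chr18:34694761-34697336) lies alone. The span of PSME1 shares 3 bases with that of EMC9, and that of PSMD1 shares 15244 bases with HTR2B, which had 340 reads over the 12 libraries against 13405 for PSMD1. Reads were not stated to be counted by strand.

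TAP1, which carries proteasome products into the endoplasmic reticulum, was lower at the middle dose than at the low dose by estimate, at -0.94 ± 0.26 (adjusted p = 0.0813), with 67.4, 94.8, 83.6 and 125 CPM at the low dose against 45.7, 49.8, 63.3 and 33.0 CPM at the middle dose. These groups did not overlap. NLRC5, the transactivator of MHC class I genes, had an estimate of -0.47 ± 0.21 (adjusted p = 0.207). Of the 7 genes of class I peptide loading that were measured, 6 had lower estimates in middle against low (2 with an unadjusted p under 0.05, and 0 called) and 5 in high against low. Over all genes 52.6% and 53.0% had lower estimates in these comparisons, and 11.3% had a lower estimate with an unadjusted p under 0.05 in middle against low. The gene with a higher estimate in middle against low was B2M, the light chain of class I, at 0.466 ± 0.375 (adjusted p = 0.461). It stood at 493, 524, 248 and 583 CPM in middle replicates 1 to 4, so middle replicate 3 was its lowest middle library. The median of the 7 was -0.47 in middle against low, where the median of all genes was -0.03. Middle replicate 3 ranked 2 of 12 for TAP2 at 60.8 CPM but 7 of 12 for TAP1 at 63.3 CPM.

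Of the 14 tested genes of the interferon response, 14 had lower estimates in middle against low (11 with an unadjusted p under 0.05, where 11.3% of all genes did) and 13 in high against low (8 with an unadjusted p under 0.05, where 4.18% of all genes did). The remaining gene in high against low, IDO1, had means of 11.8 CPM at both doses, and none of the 14 was called in either comparison. The chemokine gene CXCL9 differed by -2.27 ± 0.53 between middle and low (adjusted p = 0.0735). Low replicate 4 had a summed level of 1894 CPM over the listed interferon genes against 494 to 733 CPM in the other low libraries, while its PSMB8, PSMB9 and PSMB10 lay within the range of the other low libraries. IFNG itself, the inducer in the KEGG pathway, had 0 to 6 reads in a library and was removed by the filter.

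PTPRC and most T, NK and macrophage markers had lower estimates at the middle and high doses than at the low dose, and none passed the threshold. PTPRC, the pan-leukocyte marker, stood at 115 to 176 CPM at the low dose, 59.0 to 78.7 CPM at the middle dose and 61.6 to 105 CPM at the high dose. The difference was -0.93 ± 0.19 in middle against low (adjusted p = 0.0735) and -0.62 ± 0.19 in high against low (adjusted p = 0.386). The 14 T and NK cell markers summed to 222 to 360 CPM at the low dose, 104 to 187 CPM at the middle dose and 102 to 193 CPM at the high dose, and all 13 that were tested had lower estimates in both comparisons. The 8 macrophage markers summed to 297 to 745, 281 to 375 and 338 to 544 CPM, with 7 of 8 lower in both and CD14 as the exception. The 5 neutrophil markers summed to 15.97 to 42.6, 11.97 to 39.3 and 20.99 to 102 CPM, with 4 of 5 lower in middle against low and 5 of 5 higher in high against low by estimate. Of all these, GZMB was at 0 in some libraries and none was at 0 in every library. In middle replicate 3, where PSMB8 was 108 CPM, PTPRC was 72.4 CPM and the T and NK markers summed to 152 CPM, both inside the range of middle replicates 1, 2 and 4. The macrophage markers summed to 375 CPM there, above the 281 to 342 CPM of those 3 libraries, and the neutrophil markers to 39.3 CPM, above their 11.97 to 21.4 CPM. Within the macrophage sum CD14 ran the other way, at 106, 109, 31.7 and 99.2 CPM in middle replicates 1 to 4. Middle replicates 1, 2 and 4 were the lowest 3 of the 12 libraries for 4 of the 8 macrophage markers. This held for 1 T and NK marker, 0 neutrophil markers and 7.69% of all genes, and not for PTPRC. The part of leukocyte number in the immunoproteasome levels was not tested.

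**Figure D3:**
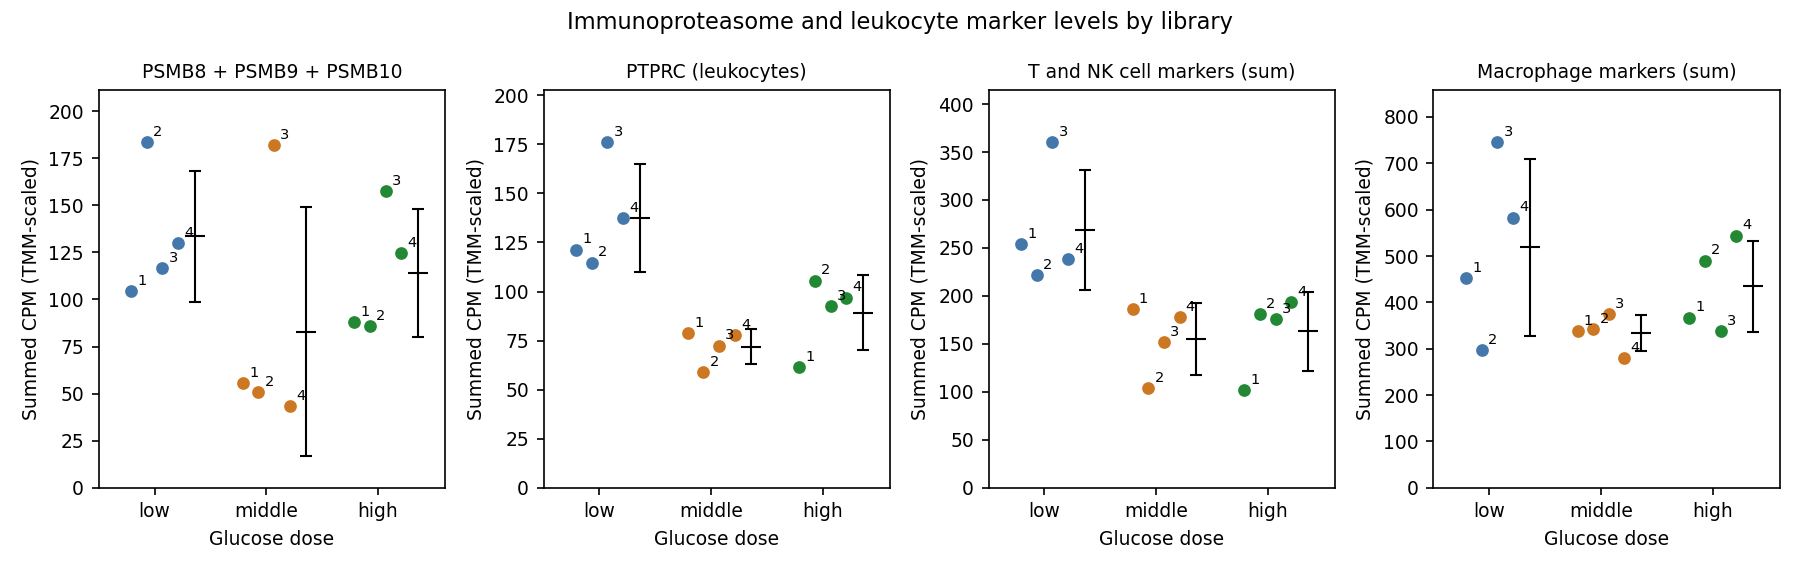
Summed level of PSMB8, PSMB9 and PSMB10, level of PTPRC, and summed levels of the T and NK cell and macrophage markers in each of the 12 libraries (CPM, TMM-scaled, axes from 0), by glucose dose; numbers are replicate numbers and bars are the mean ± SD over the 4 libraries of a dose. Middle replicate 3 stands apart from the other middle libraries in the immunoproteasome sum (182 against 43.4 to 55.4 CPM), lies above them in the macrophage sum (375 against 281 to 342 CPM) and lies among them for PTPRC and the T and NK sum.

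The constitutive 20S and 19S genes showed small differences that pointed one way at the high dose. In high against low, 32 of the 33 had a higher estimate, where 47.0% of all genes did, and their median was 0.21 against -0.03 for all genes. In high against middle, 31 of 33 had a higher estimate, where 52.8% of all genes did, and their median was 0.31 against 0.03. In middle against low, 14 of 33 had a higher estimate, where 47.4% of all genes did, with a median of -0.04. No member was called in any of these comparisons. These genes share their libraries and vary together, so the counts are not 33 separate observations.

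The unadjusted counts differ by comparison. In high against low, 4 of 33 had an unadjusted p under 0.05 and a higher estimate (12.1%, where 7.27% of all genes did), and in high against middle 13 of 33 did (39.4%, where 7.49% of all genes did). High replicate 3 was the highest of the 12 libraries for 24 of the 33 genes, where it was the highest for 17.0% of all genes. Without it, 26 of 33 were higher in high against low with a median of 0.13, and 2 reached an unadjusted p under 0.05 (3.66% of all genes did). In high against middle, 28 of 33 were then higher with a median of 0.18, and 4 reached that threshold (5.58% of all genes did). Low replicate 1 was the lowest library for 16 of the 33, where it was the lowest for 8.38% of all genes, and without it 30 of 33 were higher in high against low, 2 of them at an unadjusted p under 0.05 (3.74% of all genes did). Among the libraries of the larger table layout alone, 13 of 33 reached that threshold in high against low, where 13.6% of all genes did. That layout keeps high replicates 2 and 3 alone at the high dose, and low replicate 1 among its low libraries. The mean log2 level of the 33 genes, relative to each gene's mean, was 0.166, 0.432 and -0.265 in these. They were the 2 highest and the lowest of the 12 libraries, so this result rests on the same libraries.

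**Figure D4:**
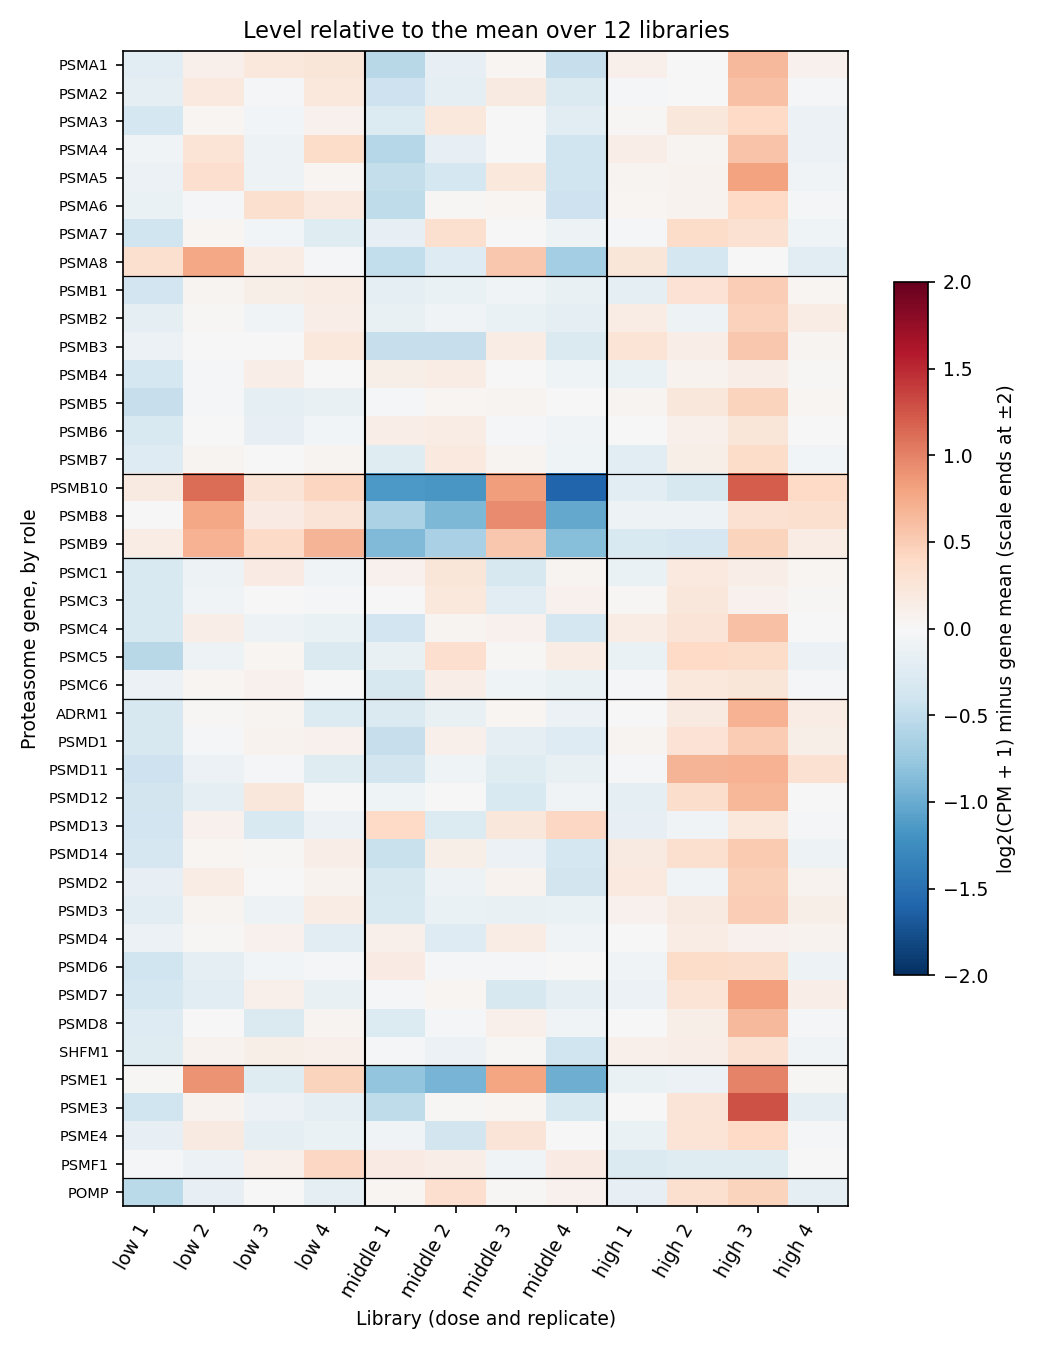
Level of each of the 41 tested members in each of the 12 libraries, as log2(CPM + 1) minus the gene's mean over the libraries (color scale from -2 to 2), with members in rows by role and libraries in columns by glucose dose. High replicate 3 is the reddest column for most constitutive genes (the highest library for 24 of 33), and the rows of PSMB8, PSMB9, PSMB10 and PSME1 are blue in middle replicates 1, 2 and 4.

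High replicate 3 had other levels that stood apart. Its 5 neutrophil markers summed to 102.5 CPM against 20.99 to 36.2 CPM in the other high libraries, and the activator gene PSME3 stood at 286 CPM against 103 to 141 CPM. The part of these in the constitutive genes was not tested. With library totals as the only scaling, the median of all genes shifted by -0.32 in high against low, -0.85 in middle against low and 0.55 in high against middle. Relative to those shifts the 33 constitutive genes had medians of 0.23, -0.02 and 0.22, and 32, 15 and 30 of the 33 lay above the median of all genes. The 3 immunoproteasome genes had relative medians of -0.19, -0.50 and 0.06.

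The alpha subunits form the outer rings and the gate of the core. Their median was -0.29 in middle against low, with 6 of 8 lower, and 0.32 in high against middle, with 8 of 8 higher. PSMA1 stood at 48.7, 61.0, 66.0 and 67.5 CPM at the low dose, at 38.6, 50.5, 58.4 and 41.0 CPM at the middle dose, and at 60.9, 57.4, 89.8 and 60.4 CPM at the high dose, a high minus middle estimate of 0.51 ± 0.19 (adjusted p = 0.267). PSMA4 ranged from 60.1 to 83.0 CPM at the low dose, from 43.2 to 64.8 CPM at the middle dose and from 59.5 to 96.3 CPM at the high dose, with a middle minus low estimate of -0.40 ± 0.19 (adjusted p = 0.221). Doses overlapped for both. PSMA7, with 43.3 to 59.1 CPM at the low dose and 53.9 to 74.4 CPM at the high dose, had the smallest unadjusted p of this group in high against low, at 0.31 ± 0.16 (adjusted p = 0.466). PSMA5 (0.49 ± 0.22 in high against middle) and PSMA6 (-0.29 ± 0.17 in middle against low) did not pass either. Without high replicate 3 the alpha median in high against low was -0.05. PSMA8, the form of PSMA7 found in male germ cells, had 0 to 25 reads in a library and is too low to compare.

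Among the constitutive beta subunits PSMB3, a structural subunit of the ring, had the largest high minus middle estimate. It stood at 37.5, 40.8, 40.9 and 47.5 CPM at the low dose, at 29.3, 29.3, 45.3 and 33.2 CPM at the middle dose and at 49.4, 45.1, 59.8 and 42.6 CPM at the high dose. Middle replicate 3 again lay above the other middle libraries, and the estimate was 0.52 ± 0.17 (adjusted p = 0.248). The other beta subunits PSMB1, PSMB2 and PSMB4 had high minus low estimates of 0.18 ± 0.16, 0.20 ± 0.14 and 0.09 ± 0.13. PSMB2 reached 0.31 ± 0.14 in high against middle (adjusted p = 0.324). All 7 beta genes had a higher estimate in high against low, and 6 of 7 in high against middle.

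The ATPases PSMC1, PSMC3, PSMC4, PSMC5 and PSMC6 drive unfolding at the base of the cap. All 5 had higher estimates in high against low, from 0.11 ± 0.13 for PSMC6 to 0.37 ± 0.17 for PSMC4. PSMC3 stood at 36.6, 42.9, 45.2 and 44.1 CPM at the low dose and at 46.1, 53.1, 48.0 and 45.9 CPM at the high dose. Its doses did not overlap, although the gap between the nearest libraries was under 1 CPM and the estimate was 0.19 ± 0.13 (adjusted p = 0.555). PSMC5 differed by 0.32 ± 0.18 between middle and low (adjusted p = 0.306), ranging from 45.2 to 69.3 CPM at the low dose and from 60.8 to 85.5 CPM at the middle dose. PSMC2, no member, had a high minus middle estimate of 0.38 ± 0.16 (adjusted p = 0.3).

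PSMD11 (gene 102187430, chr19:17075778-17102157), a scaffold subunit of the 19S lid, had the smallest p among the members in both comparisons with the high dose. It stood at 47.8, 58.9, 62.0 and 53.8 CPM at the low dose, at 49.2, 60.2, 53.7 and 57.7 CPM at the middle dose, and at 62.0, 103, 104 and 79.1 CPM at the high dose. High replicate 1 equalled low replicate 3 to 3 digits and the other 3 high libraries lay well above all 8 others. The estimates were 0.64 ± 0.17 in high against low (unadjusted p = 0.0025, adjusted p = 0.386) and 0.66 ± 0.17 in high against middle (unadjusted p = 0.00224, adjusted p = 0.209). DESeq2 called it in high against middle with 0.66 ± 0.19 (adjusted p = 0.0382), where it called 2.0% of all genes, and limma voom with quality weights did so with 0.65 ± 0.15 (adjusted p = 0.0482), where it called 2.45% of all genes. PSMD11, PSMB5 and PSMC3 were the 3 of 33 constitutive genes whose high and low doses did not overlap, with the high dose above (9.09%, where 2.25% of all genes did). PSMD11 and PSMD3 were the 2 of 33 in high against middle (6.06%, where 3.33% of all genes did).

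PSMD3, another lid subunit, stood at 46.5, 52.4, 51.8 and 52.4 CPM at the middle dose and at 61.0, 65.3, 81.5 and 62.5 CPM at the high dose, an estimate of 0.41 ± 0.13 (adjusted p = 0.238). The ubiquitin receptor ADRM1 differed by 0.41 ± 0.17 between high and low (adjusted p = 0.399), with 35.0 to 45.7 CPM at the low dose, 44.3 to 72.0 CPM at the high dose and 72.0 CPM in high replicate 3. PSMD7, which pairs with the deubiquitinase PSMD14 in the lid and is listed in the tables under a locus name, differed by 0.46 ± 0.19 (adjusted p = 0.399), with 56.8 to 78.4 CPM at the low dose and 67.4 to 129 CPM at the high dose. Both doses overlapped for each of ADRM1 and PSMD7. PSMD1, the large scaffold of the base, differed by 0.45 ± 0.16 between high and middle (adjusted p = 0.265), and PSMD2, the other base scaffold, by 0.35 ± 0.15. PSMD13 had its highest libraries at the middle dose, with 66.5 to 92.3 CPM at the low dose, 71.1 to 116 CPM at the middle dose and 77.2 to 100.4 CPM at the high dose. Its middle minus low estimate of 0.39 ± 0.17 (adjusted p = 0.201) was the only one among the 33 constitutive genes with an unadjusted p under 0.05 and a higher estimate, where 12.5% of all genes did. PSMD6 and the small subunit gene SHFM1 had high minus low estimates of 0.32 ± 0.15 and 0.11 ± 0.14.

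**Figure D5:**
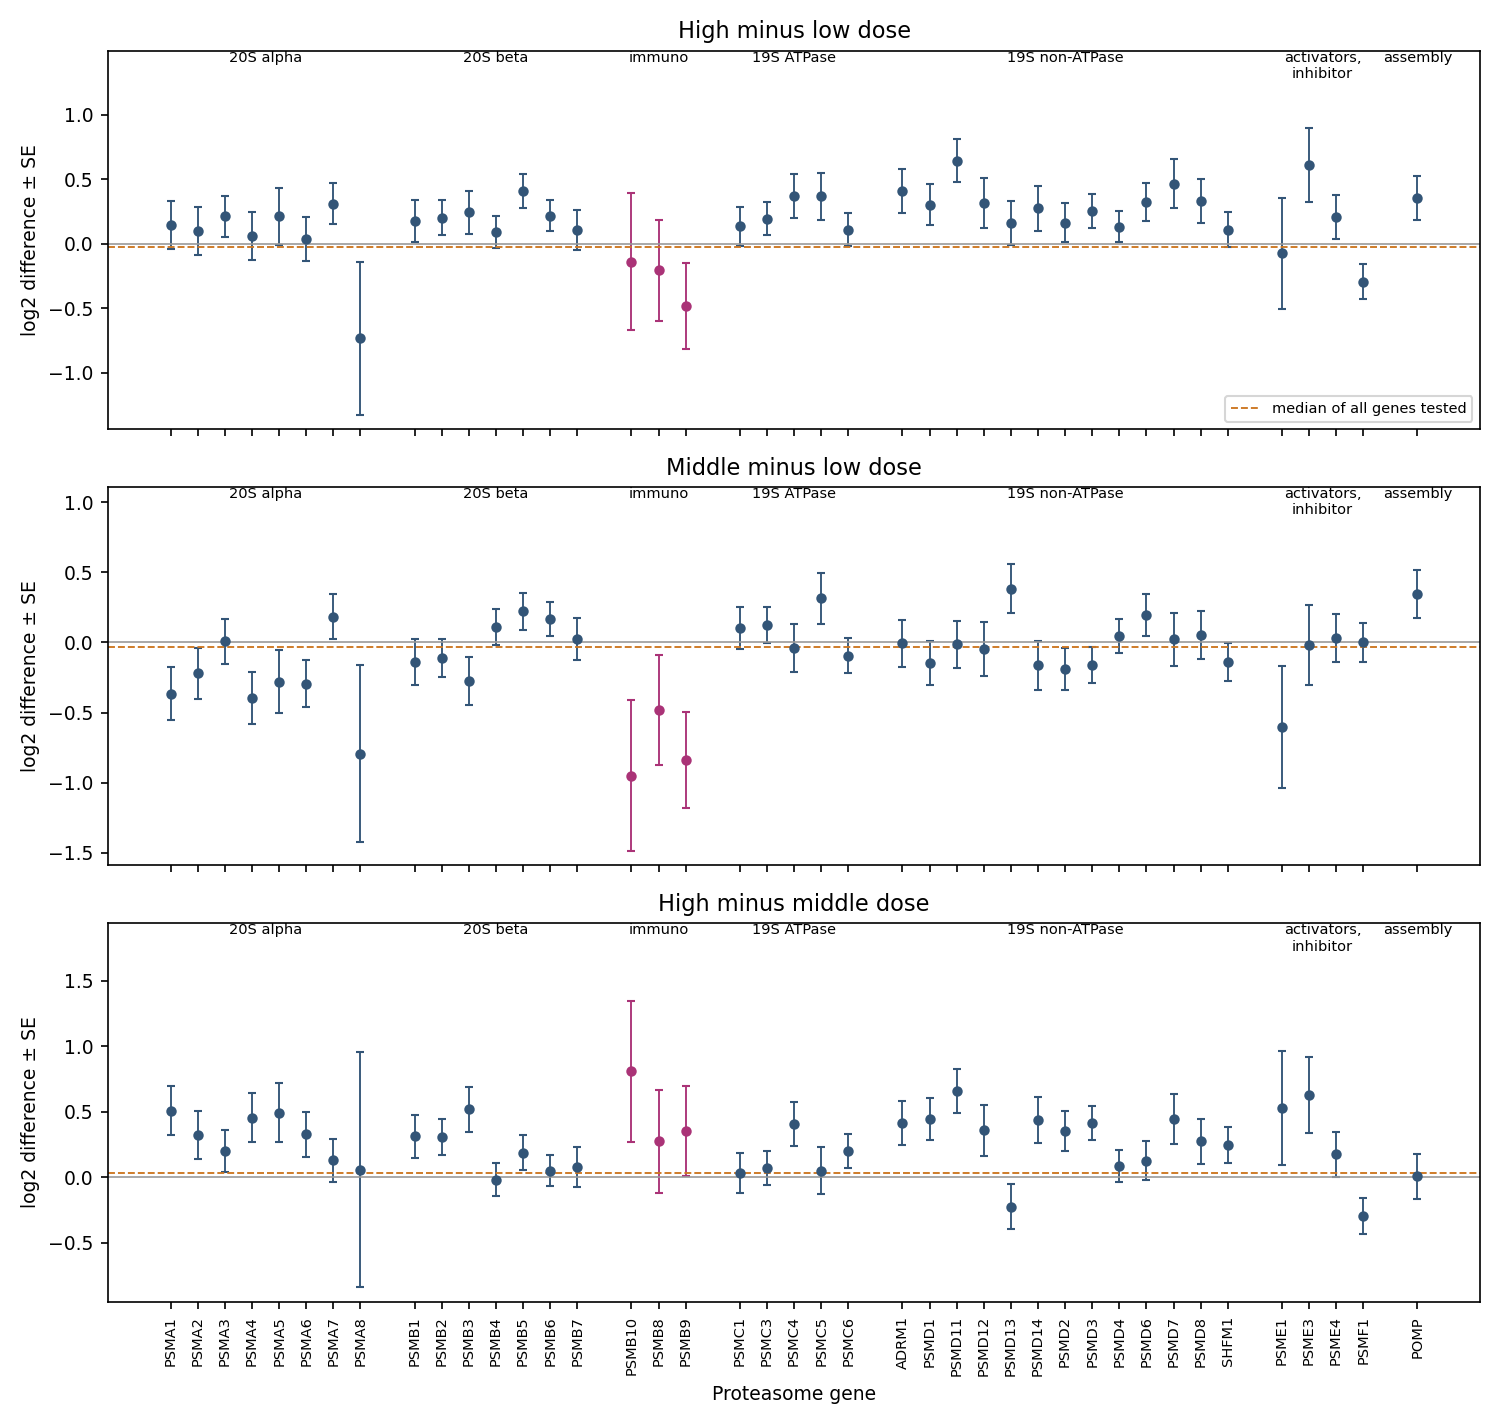
Log2 difference ± SE from edgeR's quasi-likelihood fit for each of the 41 tested members by role, in high minus low (top), middle minus low (center) and high minus middle (bottom); the dashed line is the median of all genes tested. In the top panel all constitutive genes other than PSMA8 lie above 0 and the 3 immunoproteasome genes lie below it; in the center panel the 3 immunoproteasome genes lie between -0.95 and -0.48.

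The activators and the inhibitor did not move as a group. PSME3, the nuclear activator, had a high minus low estimate of 0.61 ± 0.29 (adjusted p = 0.442) that depended on high replicate 3, with 118, 141, 286 and 103 CPM at the high dose against 88.6 to 124 CPM at the low dose. PSME4, the other nuclear activator, ranged from 77.9 to 100.4 CPM at the low dose, from 68.2 to 106 CPM at the middle dose and from 80.6 to 117 CPM at the high dose. PSMF1, an inhibitor of the core, had lower estimates at the high dose, -0.30 ± 0.14 against low and -0.30 ± 0.14 against middle (adjusted p of 0.44 and 0.341). It stood at 82.4, 77.5, 90.1 and 112 CPM at the low dose, at 94.8, 92.3, 80.3 and 94.7 CPM at the middle dose and at 68.8, 70.7, 71.0 and 84.3 CPM at the high dose, with high replicate 4 inside the range of the other doses. POMP, which brings beta subunits together during assembly, stood at 51.7, 67.4, 75.1 and 65.6 CPM at the low dose and at 78.0, 95.4, 76.4 and 80.3 CPM at the middle dose, without overlap. It was the only member whose middle and low doses did not overlap, where 5.93% of all genes lay higher in that way, and its estimate was 0.35 ± 0.17 (adjusted p = 0.246).

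With all 12 libraries, the immunoproteasome genes varied more between libraries of a dose than the constitutive genes did. The pooled SD of log2(CPM + 1) within doses was 0.58 for PSMB8, 0.48 for PSMB9, 0.79 for PSMB10 and 0.65 for PSME1. Among the 32 constitutive genes other than PSMA8 it ran from 0.12 for PSMB6 to 0.32 for PSMA5, with medians of 0.16 for the beta subunits, 0.20 for the ATPases, 0.22 for the other cap subunits and 0.25 for the alpha subunits. The median over all genes was 0.34. Without middle replicate 3 it was 0.27 for PSMB8, inside the constitutive range of 0.12 to 0.28, 0.29 for PSMB9, 0.52 for PSMB10 and 0.45 for PSME1. Scaled as CPM over the reads outside the milk protein genes, the 43 members together had a rate of 2899 to 3131 in middle replicates 1, 2 and 4, 4041 in middle replicate 3, 3435 to 4214 at the low dose and 3753 to 4808 at the high dose. This rate allows for the milk protein genes only and has no value for all genes beside it. With TMM scaling the 33 constitutive genes had a median of -0.04 in middle against low over all 4 middle libraries. Without middle replicate 3 it was -0.066, where the median of all genes was -0.053. The alpha median was then -0.423, against 0.002 for the beta subunits, 0.20 for the ATPases and -0.013 for the other cap subunits. The rate alone thus does not show a fall shared by the constitutive genes.

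Genes that supply the proteasome did not pass the threshold in any comparison. In the assembly list, which includes POMP, 7 of 9 had higher estimates in high against low and 6 of 9 in middle against low, led by PSMG2 at 0.45 ± 0.20 in the former (adjusted p = 0.416) and PSMG4 at 0.50 ± 0.17 in the latter (adjusted p = 0.117). Both code for chaperones of core assembly. Of the 4 genes around NFE2L1, the transcription factor that raises proteasome genes when proteasome activity is short, 4 were higher in high against low and 3 in middle against low by estimate. NFE2L2, the related oxidative stress factor, differed by 0.71 ± 0.19 between high and middle (adjusted p = 0.209), and DDI2, the protease that activates NFE2L1, by 0.42 ± 0.22 between middle and low (adjusted p = 0.264). Of the 6 ubiquitin and ubiquitin-activating genes 4 were higher in middle against low, with the polyubiquitin gene UBB at 0.64 ± 0.18 (adjusted p = 0.0822). UBA1, the main ubiquitin-activating enzyme, differed by 0.26 ± 0.12 between high and middle (adjusted p = 0.342). Of the 15 genes of substrate delivery and ubiquitin removal 14 had higher estimates in high against low and 10 in middle against low. Beside all the counts of this paragraph, 47.0% of all genes had higher estimates in high against low and 47.4% in middle against low. The summed level of the 15 genes was lowest in low replicate 1 (1110 CPM) and highest in high replicate 3 (1718 CPM). UFD1L, a partner of the unfoldase VCP, differed by 0.58 ± 0.15 between middle and low (adjusted p = 0.0762), and USP14, a deubiquitinase of the cap, by 0.50 ± 0.16 between high and middle (adjusted p = 0.242).

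No member had an unadjusted p under 0.05 with a lower estimate in high against low or in high against middle, where 4.18% and 7.4% of all genes did. In high against middle 3 of the 41 members, PSMB4, PSMD13 and PSMF1, had lower estimates, where 47.2% of all genes did. No member lay lower without overlap in high against low, middle against low or high against middle, where 2.47%, 5.92% and 2.61% of all genes did. Besides IFNG, PSMB11 was removed by the filter, with 0 to 5 reads in a library. Without adjustment, 1560 of the 13624 genes had a p under 0.05 in high against low, 3234 in middle against low and 2029 in high against middle. For any difference between the doses 6 of the 41 members had an unadjusted p under 0.05, all of them constitutive genes (14.6%, where 21.4% of all genes did). None of the 41 passed the adjusted threshold for any difference (0.0% of all genes). Under that test DESeq2 called 8.21% of all genes and 1 member, PSMD11, and limma voom called 28.2% of all genes and 10 members. Without middle replicate 3 edgeR called 9.34% of all genes and the 5 members PSMB3, PSMB8, PSMB9, PSMB10 and PSMD11. Without middle replicate 3 and low replicate 4 it called 2.34% of all genes and PSMB8 alone among the members, and in middle against low 8.44% of all genes and PSMB8, PSMB9 and PSMB10.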

How the data were processed

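Total RNA of mammary biopsies was made into libraries with the Illumina TruSeq RNA kit, per the labels' protocols, and 12 libraries (4 for each of 3 doses) were used. The deposited tables hold read counts per gene, made by the authors; the submitters' processing notes name Bowtie 0.12.2 and the mouse build mm8, while the sources used here do not name the counting method, its use of strand or the goat build. The tables' layouts list 15991 genes (8 libraries) and 16030 genes (4 libraries), and the 15810 genes in both were kept. Of these, 15384 matched RefSeq gene entries of assembly ARS1.2, used for names only.

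A filter on low counts (edgeR's filterByExpr, at least 10 reads in enough libraries and 15 in total) removed 2186 genes and kept 13624. TMM factors ran from 0.514 to 1.50. Dose effects were fitted over all 12 libraries with edgeR 4.0.16 (quasi-likelihood test, limma 3.58.1, R 4.3.3), with Benjamini-Hochberg adjustment over all genes and adjusted p under 0.05 as the threshold. The spread shared by all genes, as a biological coefficient of variation, was 0.363. Log2 ratios within libraries used a pseudocount of 0.5 and exact permutation tests over all arrangements of the libraries (numpy 2.4.6). The edgeR fit was tested on simulated data, in middle against low only. Named members are the immunoproteasome genes, PSME1, PSME2, the replaced subunits and the 3 members of each role with the smallest unadjusted p in each comparison; other lists name up to 2 genes; PSMA2, PSMB4, PSMC1 and others outside the rule were named after their values were seen. Members and lists were chosen with earlier results of these data known. Alternatives changed the scaling, filter, test, samples, block, layout and pseudocount. The spread within doses without middle replicate 3 was added after seeing the data. Within each dose all pairs of libraries differed beyond counting noise, so no library was counted as a second deposit of another; this does not show that they came from different goats.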

Additional observations from a re-analysis of the deposited data

Results flagged for a closer look

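Within each dose the highest and lowest of the 4 libraries were compared with the others for the members and the 3 ratios, 132 groups in all, and 14 values lay apart by Dixon's ratio at its 95% critical value. Chance gives about 1 in 20 groups. 5 of the 14 are from middle replicate 3 in genes or ratios of the inducible set: PSMB8 at 108 CPM (the next middle library was 35.4), PSMB9 at 22.7 CPM (next 9.37), PSMB10 at 51.6 CPM (next 12.2), PSME1 at 273 CPM (next 90.8) and the log2 ratio of PSMB9 to PSMB6 at -0.949 (next -2.40). PSMA5 was also highest there, at 52.9 CPM (next 35.4). High replicate 3 was highest for PSME1 at 312 CPM (next 159), PSMA5 at 80.2 CPM (next 47.8), PSMA2 at 81.2 CPM (next 54.1) and PSMA1 at 89.8 CPM (next 60.9). The other 4 values came from other libraries. PSMF1 was highest in high replicate 4 at 84.3 CPM (next 71.0), and PSME4 was highest in low replicate 2 at 100.4 CPM (next 81.2). PSMD3 was lowest in middle replicate 1 at 46.5 CPM (next 51.8), and SHFM1 was lowest in low replicate 1 at 58.2 CPM (next 72.6).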

How the results depend on the processing

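With replicate numbers as a replicate block, 0 members were called in each comparison, as without it, and the PSMB8 to PSMB5 and PSMB9 to PSMB6 differences between high and low, -0.602 and -0.732, had p = 0.125 in an exact permutation test within blocks, the smallest it allows. The numbers did not pair the libraries: 4 of 12 pairs had correlated deviations over 0.1 and 1 library correlated best with its own number. In middle against low, limma voom called 10 members (34.5% of all genes). With middle replicate 3 and low replicate 4 left out, 3 were called (8.44% of all genes). In high against middle DESeq2 and limma voom each called 1 (2.0% and 2.45% of all genes). For any difference DESeq2 called 1 (8.21% of all genes), limma voom 10 (28.2%) and the fit without those 2 libraries 1 (2.34%). Leaving out single libraries gave 0 to 4 members in middle against low, 0 to 3 in high against middle and 0 to 5 for any difference. The highest counts all came without middle replicate 3, where 17.3%, 3.66% and 9.34% of all genes were called. In high against low the count was 0 to 0. The immunoproteasome median in high against middle was 0.194 to 0.984 over single libraries left out, and 0.984 without both libraries. In the larger layout alone, with high replicates 2 and 3 only, the high minus low medians were 0.358 for the ATPases and 0.511 for the other cap subunits.

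Library size alone moved the medians in high against low, middle against low and high against middle to -0.163, -1.028 and 0.789 for the alpha subunits, -0.084, -0.797 and 0.711 for the beta subunits, -0.116, -0.818 and 0.660 for the ATPases and -0.003, -0.864 and 0.907 for the other cap subunits, beside the shift of all genes. It reversed high minus low for PSMA7 (-0.015), PSMA3 (-0.095), PSMB6 (-0.084), PSMB2 (-0.074), PSMC3 (-0.116) and PSMB7 (-0.207), middle minus low for PSMB5 (-0.606), PSMB6 (-0.688), PSMC5 (-0.547), PSMC3 (-0.776), PSMD13 (-0.446), PSMD6 (-0.644), POMP (-0.518), PSME4 (-0.728) and PSMB7 (-0.797), and high minus middle for PSMF1 (0.288). In high against low, PSMB10 was 0.047 in the larger layout, PSME1 0.091 with layout as a term and 0.071 in the larger layout, and PSME2 0.007 with only the groups compared, 0.101 with layout as a term, 0.174 in the larger layout and 0.014 without both libraries. In middle against low, PSMC6 was 0.039 in the larger layout and PSME4 -0.103 without both libraries; PSMC3 was -0.006 in high against middle without both. Leaving out single libraries reversed PSMB10 (-0.565 to 0.121), PSME1 (-0.424 to 0.168), PSME2 (-0.336 to 0.222) and PSMB7 (-0.010 to 0.191) in high against low, PSME4 (-0.082 to 0.132) and PSMB7 (-0.050 to 0.097) in middle against low, and PSMC3 (-0.006 to 0.141), PSMB6 (-0.009 to 0.083) and PSMB7 (-0.036 to 0.165) in high against middle. The causes were not tested.

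The ratio differences passed the adjusted threshold only without middle replicate 3, and over single libraries left out they ran, in high against low, middle against low and high against middle, from -0.725 to -0.504, -1.392 to -0.738 and 0.136 to 0.790 for PSMB8 to PSMB5, from -0.839 to -0.615, -1.555 to -0.986 and 0.254 to 0.822 for PSMB9 to PSMB6, and from -0.545 to -0.103, -1.869 to -1.072 and 0.744 to 1.541 for PSMB10 to PSMB7. Depth limits PSMA8, PSMB11 and IFNG. With 4 libraries per dose the precision is set by the spread between libraries, and counts were given without strand, exon length or genome build.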

Other observations

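Markers of other cells that a mammary biopsy holds were also counted. Of 5 endothelial markers 5 had higher estimates in middle against low (4 with an unadjusted p under 0.05, where 47.4% of all genes had higher estimates and 12.5% did so at that p), and they summed to 976 to 1240 CPM in middle replicates 1, 2 and 4 against 584 CPM in middle replicate 3 and 562 to 756 CPM at the low dose. Of 6 fibroblast markers 6 had lower estimates in both middle and high against low, and none was called, where 52.6% and 53.0% of all genes had lower estimates. Of 5 B and plasma cell markers 4 were lower in middle against low and 5 in high against low, with MS4A1 and CD79B at 0 in some library. Of 4 adipocyte markers 3 and of 5 myoepithelial markers 3 were lower in middle against low. Of 4 epithelial markers, 1 (ELF5) had a higher estimate in middle against low, and 7 of 8 milk protein genes did. These lists were described by counts only, and their part in the proteasome levels was not tested.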
